A study of Homo sapiens with 6 samples.

Results

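The genes described here encode the core machinery of programmed cell death: the BCL2 family, the caspases, the inhibitors of apoptosis with their antagonists, the death receptors and the necroptosis kinases. Their 42 symbols were fixed as a list and matched to the gene names of the deposited count table, where all 42 were found, each once, among 20532 genes. RNA came from MDA-MB-231 M3, a line with metastatic growth in bone that stems from the human triple-negative breast cancer cells MDA-MB-231. Cells after PRMT1 knockdown by small interfering RNA (siPRMT1, 3 libraries) were set against control cells (3 libraries). PRMT1 is the main enzyme of asymmetric arginine dimethylation. The labels describe the controls only as untreated or control cells, and do not say whether they were transfected or got a non-targeting siRNA. The number of siRNA sequences, the time after transfection and the passage are likewise not stated, and all libraries come from a single derivative of a single line. The question was which transcripts of these pathways differ when PRMT1 is knocked down.

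As background, apoptosis runs along a mitochondrial and a receptor route. In the mitochondrial route BH3-only proteins (BID, BAD, BIK, BMF, BBC3 or PUMA, PMAIP1 or NOXA, BCL2L11 or BIM, HRK) engage the anti-apoptotic proteins of the BCL2 family. BAX and BAK1 then open the outer mitochondrial membrane, and cytochrome c assembles APAF1 and CASP9 into the apoptosome. In the receptor route FAS, TNFRSF1A and the TRAIL receptors TNFRSF10A and TNFRSF10B recruit FADD or TRADD and activate CASP8 and CASP10, which CFLAR (FLIP) restrains. XIAP blocks caspases directly and BIRC2 and BIRC3 are ubiquitin ligases of the receptor complexes, and DIABLO and HTRA2 released from mitochondria counter them. Where CASP8 is inactive, RIPK1, RIPK3 and MLKL carry necroptosis.

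Promoter sequence is given for 4 genes with large changes before the GC and length offsets explained below. Of these, 2 fell (BIRC3 and PMAIP1) and 2 rose (BAX and BAK1), and they were chosen with their values known. With the offsets the log2 fold changes were -0.70 for BIRC3, -1.49 for PMAIP1, only 0.13 for BAX and 0.65 for BAK1. The bases before the annotated start, 5′ to 3′ on the gene's strand, are from RefSeq (GRCh38.p14), and they stop where the deposited gene model begins. Capitals mark matches on either strand to the NF-kB consensus in BIRC3, to GGGCGG (the GC box) and TGACG (the core of the cyclic AMP response element) in PMAIP1, to CACGTG (the E-box) in BAX and to GGGCGG in BAK1.
BIRC3, chr11:102317234-102317483, plus strand: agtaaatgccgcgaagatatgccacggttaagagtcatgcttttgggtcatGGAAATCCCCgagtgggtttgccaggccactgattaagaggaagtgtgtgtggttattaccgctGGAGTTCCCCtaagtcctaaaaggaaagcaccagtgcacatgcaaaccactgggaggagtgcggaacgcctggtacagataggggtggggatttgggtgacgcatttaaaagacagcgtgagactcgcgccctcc
PMAIP1, chr18:59899746-59899995, plus strand: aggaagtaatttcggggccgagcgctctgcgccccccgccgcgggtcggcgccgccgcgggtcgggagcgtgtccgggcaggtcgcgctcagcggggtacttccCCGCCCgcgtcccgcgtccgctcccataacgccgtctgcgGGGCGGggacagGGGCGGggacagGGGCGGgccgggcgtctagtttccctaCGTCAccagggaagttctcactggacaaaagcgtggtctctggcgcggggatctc
BAX, chr19:48954625-48954814, plus strand: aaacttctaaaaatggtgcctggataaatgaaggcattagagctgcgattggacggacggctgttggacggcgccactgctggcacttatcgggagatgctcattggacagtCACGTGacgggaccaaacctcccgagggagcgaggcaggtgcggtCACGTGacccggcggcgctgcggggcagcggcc
BAK1, chr6:33580294-33580526, minus strand: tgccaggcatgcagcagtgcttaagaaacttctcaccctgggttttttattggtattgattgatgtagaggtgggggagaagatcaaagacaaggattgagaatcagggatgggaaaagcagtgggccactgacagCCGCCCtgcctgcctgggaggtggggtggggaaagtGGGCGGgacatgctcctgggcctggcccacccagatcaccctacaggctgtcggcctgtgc

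In the 250 bases before its start BIRC3 held 2 matches to the NF-kB consensus, PMAIP1 held 4 GC boxes and 1 TGACG, BAX held 4 E-boxes, 2 of them within the bases printed, and BAK1 held 2 GC boxes. In BAX, 1 TGACG shares bases with an E-box. RefSeq windows were found for 32 of the 42 genes, 15 of them higher and 15 lower after knockdown. Genes with several starts have several windows, 58 in all for the 32 genes, so shares are given per window. The NF-kB consensus was in 10.3% of the 58 windows and in 9.96% of all 35116 windows, the E-box in 6.90% and 6.34%, and the AP-1 motif TGANTCA in 6.90% and 6.57%, all close to the background. The GC box was in 65.5% of the 58 windows and in 42.6% of all windows, and TGACG in 31.0% and 21.2%. By gene, the NF-kB consensus was present for BIRC3, BIRC6, CASP2, CFLAR and FAS, which fell, and BMF, which rose. The E-box was present for BAX, BBC3 and BID, which rose, and the AP-1 motif for BBC3, which rose, and CASP8, CFLAR and FAS, which fell. The GC box was present for 12 of the 15 higher and 11 of the 15 lower genes, and TGACG for 6 and 8. All these directions are before the GC and length offsets. With the offsets CFLAR (log2 0.44) and FAS (0.68) were higher, BBC3 (-0.61) was lower and CASP2 (-0.059) did not pass. The other genes named here kept their direction. A match is a string of letters and no evidence of binding.

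Total counts ran from 16968563 to 20545995 in the siPRMT1 libraries and from 17921097 to 19645127 in the control libraries. PRMT1 itself (ENSG00000126457) had 193, 218 and 181 counts in the siPRMT1 libraries, against 3160, 2991 and 3072 in the control libraries, a log2 fold change of -3.62 (-4.64 with the GC and length offsets explained below; SE 0.0451 and adjusted p = 9.06e-297 without them; edgeR's quasi-likelihood test, Benjamini-Hochberg adjustment over 13710 genes). The share of reads from the mitochondrial genome was 8.64% to 8.74% in siPRMT1 libraries and 5.001% to 5.09% in control libraries. The line's own markers were all present, and they moved both ways. VIM averaged 2368 CPM in siPRMT1 cells and 1817 CPM in control cells, AXL 590 and 460.0, KRT18 901 and 255, CD44 703 and 1156, and EGFR 112 and 237. ESR1 and PGR were at 0.15 CPM or less in every library. Summed markers of leukocytes (5 genes, nearly all CD14) reached 7.94 to 8.70 CPM in the siPRMT1 libraries and 4.33 to 4.98 CPM in the control libraries, with PTPRC at 0.183 CPM or less in every library. Bone cell markers (4 genes) summed to 7.23 to 7.40 CPM in siPRMT1 libraries and 3.70 to 4.61 CPM in control libraries. Endothelial markers (4 genes) summed to 20.3 to 21.05 CPM in siPRMT1 libraries and 25.2 to 26.3 CPM in control libraries; PECAM1 averaged 20.03 CPM in siPRMT1 cells and 21.03 CPM in control cells, and KDR 0.544 and 4.41 CPM. Luminal markers (5 genes, mainly KRT19) summed to 836 to 842 CPM in siPRMT1 libraries and 365 to 376 CPM in control libraries. Their part in the results was not tested.

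Of the 42 genes, 40 had enough reads to be tested, and HRK and RIPK3 did not. At an adjusted p under 0.05, 18 rose and 20 fell after knockdown, and 2 did not pass. This has to be read against a transcriptome in which 89.3% of all tested genes passed, 44.3% higher and 45% lower. Likewise 6 genes rose and 8 fell at least 2-fold, where 36.3% of all tested genes did so, 15.3% higher and 21% lower. Against a 2-fold change as the null hypothesis (edgeR's glmTreat), 13 of the 40 passed and 30% of all tested genes. CPM values of the groups did not overlap for 37 of the 40 genes (18 higher, 19 lower) and for 89.1% of all tested genes (44.1% higher, 45% lower). The median log2 fold change was -0.045 over the 40 genes and -0.0082 over all tested genes. As a set, then, these genes changed about as often as any others, and what follows describes which of them moved, by how much and in which direction. Levels are TMM-scaled CPM (read counts relative to library size), log2 fold changes are siPRMT1 minus control, and every adjusted p below comes from that edgeR test unless DESeq2 is named. Across all genes the fold change followed the length and base composition of the transcript. Fold changes of single genes are therefore also given after offsets that remove this trend (GC and length offsets), while ratios and levels are not adjusted. The trend went with the group, so a knockdown effect that follows GC or length and a library effect cannot be told apart. The offsets remove both, and which fit is nearer to the true change was not tested. With the offsets 15 of the 40 rose and 17 fell, where 80.5% of all tested genes passed, 44.9% higher and 35.6% lower, and 24 of the 38 calls kept their direction. The other 14 split into 8 that turned round and 6 that no longer passed. At least 2-fold with the offsets, 0 rose and 4 fell (APAF1, PMAIP1, XIAP and BIRC6), against 14.2% of all tested genes, 5.71% higher and 8.51% lower. The medians with the offsets were -0.033 over the 40 genes and 0.068 over all tested genes. Scaling by library size alone moved the fold changes down together, by a median of -0.317 on the log2 scale: 17 of the 40 then rose and 21 fell, where 88.8% of all tested genes passed, 33.5% higher and 55.4% lower. The share of higher genes among all called genes was 49.6% with TMM scaling, 37.7% with library size alone and 55.8% with the offsets.

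**Figure D1:**
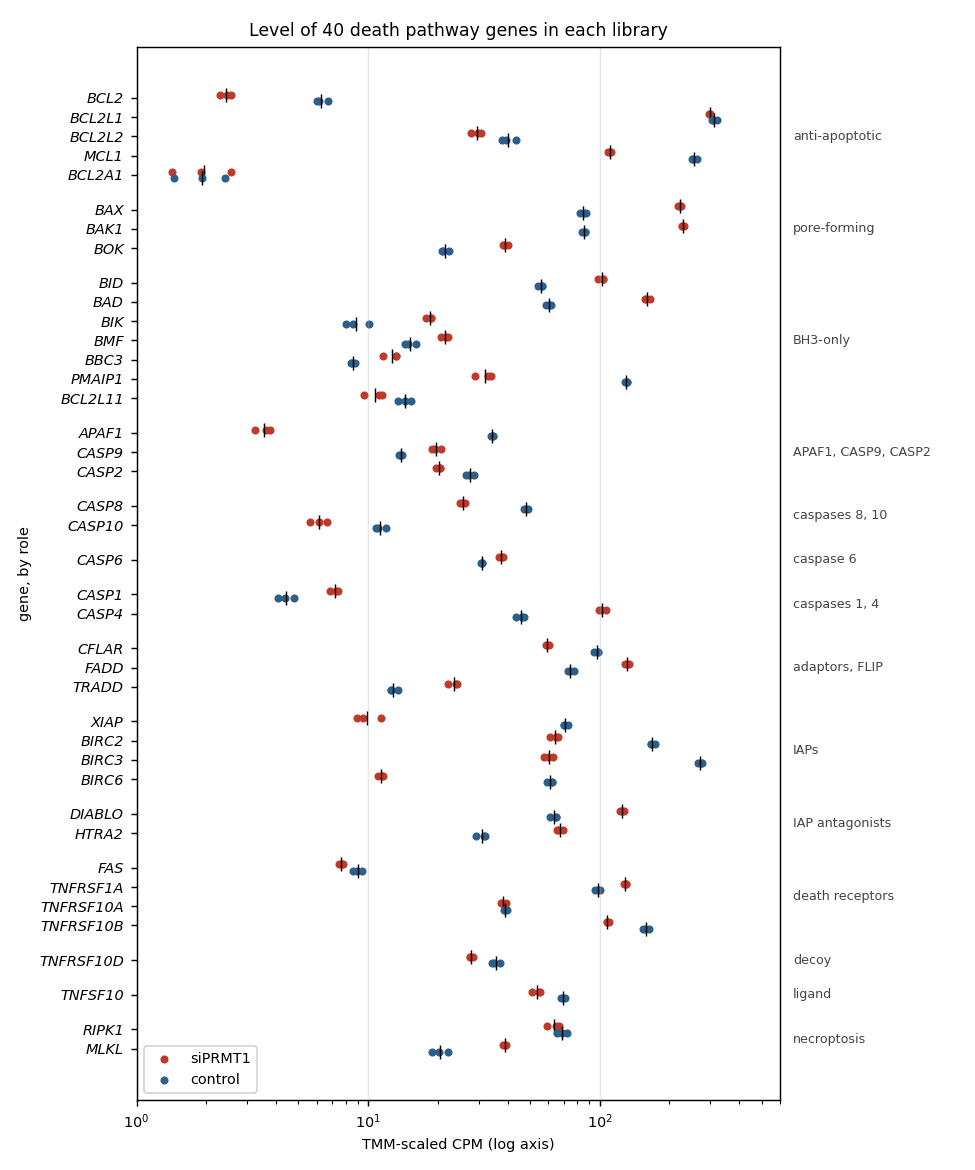
Level of the 40 tested genes in each library, ordered by role; the x axis is TMM-scaled CPM on a log axis, each point is 1 library and the black bars are group means (3 libraries each). The siPRMT1 points of XIAP, BIRC2, BIRC3, BIRC6, APAF1 and PMAIP1 lie far left of the control points, those of BAX, BAK1, BAD and CASP4 lie to the right, and those of BCL2A1, TNFRSF10A and RIPK1 overlap them.

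All 4 inhibitors of apoptosis on the list fell, by 2.64-fold to 7.08-fold, and all 4 were also lower with the offsets. The family outside the list did not move as one. BIRC5 rose (log2 0.98, and 0.84 with the offsets). NAIP fell (-0.85) but was at 0.21 with the offsets and did not pass, and BIRC7 was not tested. These further genes were added with their values known. XIAP (ENSG00000101966; hg38, chromosome X, 123859712 to 123913615, plus strand), the direct caspase inhibitor, stood at 8.93, 11.3 and 9.53 CPM in the siPRMT1 libraries, against 69.8, 69.8 and 72.8 CPM in the control libraries. That is a log2 fold change of -2.82 (SE 0.0554; adjusted p = 2.32e-205), and -1.47 with the offsets. BIRC6, a giant ubiquitin-conjugating enzyme that binds caspases and DIABLO, stood at 11.0, 11.5 and 11.6 CPM in the siPRMT1 libraries, against 62.4, 62.3 and 59.0 CPM in the control libraries. The log2 fold change of BIRC6 was -2.43 (SE 0.0553; adjusted p = 1.13e-177; -1.22 with the offsets). In both genes every siPRMT1 library lay far below every control library. BIRC3, a ubiquitin ligase of the receptor complexes and a well known target of NF-kB, stood at 57.6, 62.9 and 59.98 CPM in the siPRMT1 libraries, against 276, 273 and 265 CPM in the control libraries. It changed by -2.17 (SE 0.0276; adjusted p = 3.54e-293), and by -0.70 with the offsets. Its neighbour and close relative BIRC2 stood at 60.9, 65.0 and 66.1 CPM in the siPRMT1 libraries, against 173, 167 and 166 CPM in the control libraries, a change of -1.40 (SE 0.0298; adjusted p = 9.66e-190; -0.42 with the offsets). These 2 genes lie side by side on the plus strand of chromosome 11, BIRC3 at 102317484 to 102337705 and BIRC2 at 102347211 to 102378663. Per kilobase of transcript BIRC2 and BIRC3 were the most abundant of the 4: BIRC2 had 17.0 ± 0.723 CPM per kilobase in siPRMT1 cells and 44.8 ± 1.05 in control cells (SD, n = 3 each), and BIRC3 8.75 ± 0.385 CPM per kilobase in siPRMT1 cells and 39.5 ± 0.823 in control cells (SD, n = 3 each). The order of the 4 thus ran BIRC2, BIRC3, XIAP, BIRC6 in both groups, and the gap between BIRC2 and BIRC3 was wider in siPRMT1 cells. These levels are not adjusted, and with the offsets the log2 fold changes of BIRC2 (-0.42) and BIRC3 (-0.70) lay closer together.

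The 2 antagonists of these inhibitors rose. DIABLO (SMAC), which displaces caspases from XIAP, stood at 127, 124 and 122 CPM in the siPRMT1 libraries, against 60.8, 64.7 and 64.4 CPM in the control libraries, a log2 fold change of 0.98 (SE 0.0312; adjusted p = 6.56e-122; 0.57 with the offsets). HTRA2 (OMI), a mitochondrial serine protease that cleaves inhibitors of apoptosis, stood at 66.3, 69.4 and 65.6 CPM in the siPRMT1 libraries, against 31.8, 31.6 and 29.2 CPM in the control libraries. It rose by 1.12 (SE 0.0419; adjusted p = 5.07e-100), and by 0.25 with the offsets. The groups did not overlap in either gene. The gene model of DIABLO shares its strand with 2 overlapping models that also carry reads, and that of HTRA2 overlaps AUP1 and LOXL3 on the other strand, so both values are uncertain to that extent: whether the counting used strand is not stated. A ratio of 2 genes within a library does not depend on the scaling between libraries, but its level depends on the transcript lengths used and it carries the GC and length trend. Per kilobase of transcript the ratio of DIABLO to XIAP was 82.9, 64.0 and 74.4 in the siPRMT1 libraries, against 5.07, 5.39 and 5.15 in the control libraries. With the length of the deposited gene model it averaged 19.3 in siPRMT1 libraries and 1.36 in control libraries. With the offsets the log2 fold changes were 0.57 for DIABLO and -1.47 for XIAP, against 0.98 and -2.82 without them.

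The anti-apoptotic genes of the BCL2 family fell or stayed close to control: 4 of 5 fell and BCL2A1 did not pass. MCL1, a short-lived survival protein on which many breast cancer cells depend, stood at 109, 111 and 111 CPM in the siPRMT1 libraries, against 263, 253 and 251 CPM in the control libraries. This is 2.32-fold lower (log2 -1.21, SE 0.0243; adjusted p = 1.4e-201), and -0.68 on the log2 scale with the offsets. BCL2L1, which encodes BCL-XL, was the most abundant of the 5 and stood at 300.2, 300.5 and 298 CPM in the siPRMT1 libraries, against 307, 307 and 321 CPM in the control libraries. Its log2 fold change was only -0.057 (SE 0.0182; adjusted p = 0.00227) and was larger with the offsets (-0.56). That small fall did not pass with DESeq2 (adjusted p = 0.0634) or without control replicate 3 (adjusted p = 0.18). BCL2, the founding member, was scarce at 2.30, 2.45 and 2.56 CPM in the siPRMT1 libraries, against 6.16, 5.997 and 6.68 CPM in the control libraries, and fell by 1.37 on the log2 scale (SE 0.139; adjusted p = 9.81e-21; -0.44 with the offsets). BCL2L2 (BCL-W) averaged 29.4 ± 1.41 CPM in siPRMT1 cells and 40.3 ± 2.86 CPM in control cells (SD, n = 3 each; log2 -0.46; -0.42 with the offsets). Its gene model overlaps the read-through gene BCL2L2-PABPN1 on the same strand, which had more reads, so this value is uncertain. BCL2A1 (BFL1), an NF-kB target in blood cells, stood at 1.43, 1.90 and 2.56 CPM in the siPRMT1 libraries, against 1.92, 2.40 and 1.46 CPM in the control libraries. Its groups overlapped (log2 0.026, SE 0.199; adjusted p = 0.902), and the sign of this small value depended on the scaling (-0.29 with scaling by library size alone, 0.033 with the offsets). Per kilobase, BCL2L1 had 116 ± 0.635 CPM per kilobase in siPRMT1 cells and 121 ± 3.10 in control cells (SD, n = 3 each) and MCL1 27.9 ± 0.372 CPM per kilobase in siPRMT1 cells and 64.7 ± 1.64 in control cells (SD, n = 3 each). The ratio of BCL2L1 to MCL1 on that scale was 4.24, 4.16 and 4.10 in the siPRMT1 libraries, against 1.79, 1.86 and 1.96 in the control libraries. This ratio is not adjusted, and with the offsets the 2 genes fell by similar amounts (-0.56 for BCL2L1 and -0.68 for MCL1).

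All 3 pore-forming genes rose. BAX (48954815 to 48961636, plus strand, chromosome 19) stood at 224, 221 and 218 CPM in the siPRMT1 libraries, against 82.4, 87.1 and 85.3 CPM in the control libraries, 2.60-fold higher (log2 1.38, SE 0.0260; adjusted p = 4.86e-213). BAK1 stood at 230.2, 228 and 226 CPM in the siPRMT1 libraries, against 83.9, 86 and 86.6 CPM in the control libraries, a log2 fold change of 1.42 (SE 0.0258; adjusted p = 8.74e-220). The groups lay well apart in both. BOK, a less studied relative, averaged 39.1 ± 1.08 CPM in siPRMT1 cells and 21.4 ± 0.887 CPM in control cells (SD, n = 3 each; log2 0.87). With the offsets the 3 differed: BAK1 was higher by 0.65 (adjusted p = 1.67e-28), BAX by 0.13 (adjusted p = 1.26e-05), and BOK, at 0.0011 (adjusted p = 0.986), no longer passed. BAX then lay near the middle of all tested genes, at percentile 54.2. Per kilobase of transcript BAX had 278 ± 3.85 CPM per kilobase in siPRMT1 cells and 107 ± 2.93 in control cells (SD, n = 3 each), and BAK1 105 ± 0.898 CPM per kilobase in siPRMT1 cells and 39.4 ± 0.663 in control cells (SD, n = 3 each). Set against BCL2L1, BAX was at 2.42, 2.38 and 2.37 in the siPRMT1 libraries, against 0.870, 0.918 and 0.861 in the control libraries. With the length of the deposited gene model this ratio averaged 1.20 in siPRMT1 libraries and 0.443 in control libraries. BAX and BAK1 together, set against the 5 anti-apoptotic genes together, were at 2.50, 2.46 and 2.43 in the siPRMT1 libraries, against 0.711, 0.747 and 0.730 in the control libraries. With the length of the deposited gene model in place of the canonical transcript, the ratio of the summed levels averaged 1.94 in siPRMT1 libraries and 0.567 in control libraries. These ratios are of RNA.

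The BH3-only genes split: 5 rose, 2 fell and HRK was not tested. PMAIP1 (NOXA; ENSG00000141682; chromosome 18, 59899996 to 59902963, plus strand), whose product binds MCL1 and speeds its destruction, stood at 28.8, 34.0 and 32.8 CPM in the siPRMT1 libraries, against 131, 131 and 128 CPM in the control libraries. It was 4.06-fold lower (log2 -2.02, SE 0.0370; adjusted p = 5.98e-219), and -1.49 on the log2 scale with the offsets, among the lowest 3.60% of all tested genes. The level of PMAIP1 per kilobase relative to MCL1 was 0.552, 0.639 and 0.613 in the siPRMT1 libraries, against 1.03, 1.08 and 1.06 in the control libraries. BCL2L11 (BIM), a strong activator of BAX and BAK1, stood at 9.62, 11.5 and 11.1 CPM in the siPRMT1 libraries, against 14.4, 13.4 and 15.3 CPM in the control libraries. It fell (log2 fold change -0.42, SE 0.0784; adjusted p = 1.62e-07) but was higher by 0.27 with the offsets (adjusted p = 0.00235).

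Of the BH3-only genes that rose, BID, the link that CASP8 cleaves to reach mitochondria, stood at 104, 104 and 98.7 CPM in the siPRMT1 libraries, against 54.05, 56.4 and 56.1 CPM in the control libraries. Its change of 0.88 (SE 0.0335; adjusted p = 1.36e-97) was nearly the same with the offsets (0.82). BMF, a sensor of detachment from the matrix, also kept its size, with 21.4 ± 0.718 CPM in siPRMT1 cells and 15.1 ± 0.895 CPM in control cells (SD, n = 3 each; log2 0.51; 0.54 with the offsets). BAD, which growth factor signalling holds inactive, stood at 158, 165 and 156 CPM in the siPRMT1 libraries, against 58.5, 60.7 and 61.6 CPM in the control libraries, a change of 1.41 (SE 0.0299; adjusted p = 8.6e-191), but with the offsets only 0.012 remained (adjusted p = 0.711). BIK, of the endoplasmic reticulum, stood at 18.7, 17.8 and 18.7 CPM in the siPRMT1 libraries, against 8.58, 10.1 and 8 CPM in the control libraries, a change of 1.05 (SE 0.0767; 0.072 with the offsets, adjusted p = 0.405). BBC3 (PUMA), which binds all the anti-apoptotic proteins of the family, stood at 13.2, 13.2 and 11.6 CPM in the siPRMT1 libraries, against 8.44, 8.75 and 8.52 CPM in the control libraries; it was higher by 0.56 (SE 0.0847; adjusted p = 1.02e-10) and lower with the offsets (-0.61; adjusted p = 5.75e-09). BBC3 has the most GC-rich transcript of the 42 genes, at 69.7%. HRK had 0, 1 and 0 counts in siPRMT1 libraries and 0, 3 and 3 in control libraries, which is too few for a comparison.

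APAF1, the scaffold of the apoptosome, changed more than any other of the 40 tested genes. It stood at 3.78, 3.26 and 3.61 CPM in the siPRMT1 libraries, against 34.7, 34.4 and 34.0 CPM in the control libraries (ENSG00000120868; chromosome 12, 98645149 to 98735418, plus strand). The level was 9.70-fold lower (log2 -3.28, SE 0.0837; adjusted p = 8.19e-158), within the lowest 0.474% of all tested genes, and -2.18 on the log2 scale with the offsets, within the lowest 1.10%. In counts, APAF1 had 61, 60 and 55 reads in the siPRMT1 libraries and 761, 689 and 723 in the control libraries. Its partner CASP9, the initiator caspase of the mitochondrial route, moved the other way, with 19.7 ± 0.925 CPM in siPRMT1 cells and 13.8 ± 0.264 CPM in control cells (SD, n = 3 each; log2 0.52, SE 0.0676; 0.38 with the offsets). Per kilobase of transcript APAF1 relative to CASP9 was 0.0780, 0.0614 and 0.0725 in the siPRMT1 libraries, against 0.983, 0.991 and 0.943 in the control libraries. With the length of the deposited gene model the ratio averaged 0.121 in siPRMT1 libraries and 1.66 in control libraries, so its level, but not the fold between the groups, rests on the length used. CASP2, an initiator linked to DNA damage and the PIDDosome, averaged 20.1 ± 0.467 CPM in siPRMT1 cells and 27.5 ± 1.03 CPM in control cells (SD, n = 3 each; log2 -0.45; -0.059 with the offsets, adjusted p = 0.333).

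**Figure D2:**
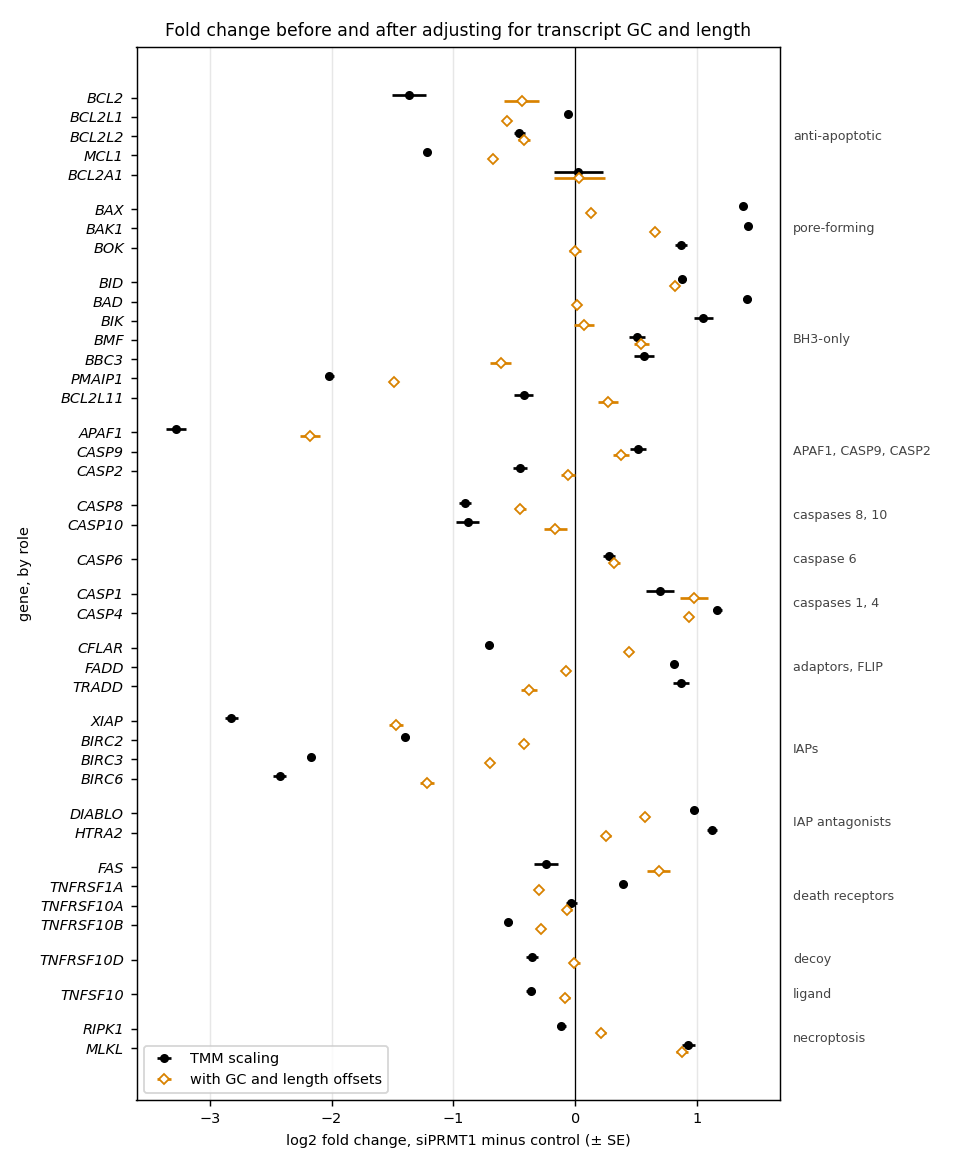
Log2 fold change (siPRMT1 minus control, ± SE from edgeR, 3 libraries per group) of the 40 tested genes by role; filled points are the fit with TMM scaling and open diamonds the fit with GC and length offsets. APAF1, PMAIP1 and the 4 inhibitors of apoptosis stay left of 0 in both fits, BID, BMF, BAK1, DIABLO, CASP1, CASP4 and MLKL stay right of 0, and BAX, BAD, BOK and BIK move close to 0 with the offsets.

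Among the other caspases, those of death receptors fell and those of inflammation rose. CASP8, the apical caspase of the receptor route, averaged 25.6 ± 0.659 CPM in siPRMT1 cells and 47.9 ± 0.945 CPM in control cells (SD, n = 3 each; log2 -0.91, SE 0.0478; adjusted p = 3.32e-61; -0.45 with the offsets). Its relative CASP10 averaged 6.12 ± 0.526 CPM in siPRMT1 cells and 11.3 ± 0.590 CPM in control cells (SD, n = 3 each; log2 -0.88, SE 0.0957); with the offsets it was at -0.16 and did not pass (adjusted p = 0.123). CASP4, the receptor of intracellular lipopolysaccharide, stood at 102, 106 and 99.0 CPM in the siPRMT1 libraries, against 47.2, 46.2 and 43.3 CPM in the control libraries. It rose by 1.17 (SE 0.0350; adjusted p = 1.42e-131), and by 0.94 with the offsets. CASP1, the inflammasome caspase, lies near CASP4 on chromosome 11, with CASP5 between them. CASP1 averaged 7.20 ± 0.308 CPM in siPRMT1 cells and 4.42 ± 0.350 CPM in control cells (SD, n = 3 each; log2 0.69, SE 0.115; 0.98 with the offsets). CASP6, which cleaves lamins, stood at 37.8, 36.8 and 38.2 CPM in the siPRMT1 libraries, against 30.8, 31.1 and 30.9 CPM in the control libraries. Its small rise (log2 0.28, SE 0.0479; adjusted p = 1.23e-08; 0.32 with the offsets) did not pass with scaling by library size alone, at -0.037.

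The adaptors FADD and TRADD rose and CFLAR fell, and all 3 turned round with the offsets. FADD stood at 134, 131 and 128 CPM in the siPRMT1 libraries, against 72.7, 77.1 and 74.2 CPM in the control libraries (log2 0.81, SE 0.0298; adjusted p = 1.56e-102; -0.073 with the offsets). TRADD, the adaptor of TNFRSF1A, stood at 22.2, 24.2 and 23.9 CPM in the siPRMT1 libraries, against 12.5, 12.5 and 13.5 CPM in the control libraries (log2 0.87, SE 0.0659; adjusted p = 3.95e-34; -0.38 with the offsets). CFLAR stood at 59.2, 58.8 and 60.1 CPM in the siPRMT1 libraries, against 98.1, 98.2 and 94.8 CPM in the control libraries (log2 -0.71, SE 0.0337; adjusted p = 1.83e-71; 0.44 with the offsets). Its canonical transcript of 14612 bases is the second longest of the 42. CFLAR, CASP10 and CASP8 lie in that order within one stretch of the plus strand of chromosome 2, from 201116154 to 201361836. CASP8 relative to CFLAR was slightly lower after knockdown, at 2.44, 2.34 and 2.32 in the siPRMT1 libraries, against 2.64, 2.67 and 2.84 in the control libraries. For FADD relative to CFLAR the ratio was 19.4, 19.1 and 18.3 in the siPRMT1 libraries, against 6.34, 6.71 and 6.69 in the control libraries. With the length of the deposited gene model these ratios averaged 1.34 in siPRMT1 libraries and 1.54 in control libraries for CASP8, and 29.1 in siPRMT1 libraries and 10.1 in control libraries for FADD. Neither ratio is adjusted. With the offsets the log2 fold changes were -0.45 for CASP8, -0.073 for FADD and 0.44 for CFLAR. On that scale FADD fell relative to CFLAR, and CASP8 and CFLAR lay further apart than without the offsets.

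The receptors had smaller fold changes, between -0.55 and 0.40 on the log2 scale. TNFRSF10B (DR5), the main TRAIL receptor of many tumour lines, stood at 109.6, 107 and 107 CPM in the siPRMT1 libraries, against 157, 154 and 163 CPM in the control libraries. It fell by 0.55 on the log2 scale (SE 0.0268; adjusted p = 1.05e-68; -0.28 with the offsets). TNFRSF10A (DR4) averaged 38.3 ± 0.962 CPM in siPRMT1 cells and 39.1 ± 0.737 CPM in control cells (SD, n = 3 each); its groups overlapped and it did not pass (log2 -0.034, SE 0.0453; adjusted p = 0.474), though scaling by library size alone put it among the lower genes (-0.35); with the offsets it was at -0.064 (adjusted p = 0.165). The decoy receptor TNFRSF10D averaged 27.8 ± 0.451 CPM in siPRMT1 cells and 35.5 ± 1.44 CPM in control cells (SD, n = 3 each; log2 -0.36; -0.0059 with the offsets, adjusted p = 0.911). The ligand TNFSF10 (TRAIL) stood at 50.8, 55.5 and 54.7 CPM in the siPRMT1 libraries, against 68.1, 69.2 and 70.4 CPM in the control libraries (log2 -0.37, SE 0.0371; adjusted p = 5.87e-21; -0.080 with the offsets). Of the reads per kilobase of the 3 TRAIL receptors, TNFRSF10B took between 54.2% and 55.6% in siPRMT1 libraries and between 61.2% and 62.2% in control libraries. TNFRSF1A, the main receptor of tumour necrosis factor, stood at 128, 129 and 129.9 CPM in the siPRMT1 libraries, against 98.5, 100.2 and 95.6 CPM in the control libraries. It was higher by 0.40 (SE 0.0283; adjusted p = 7.67e-38) but lower with the offsets (-0.30). FAS was scarce, at 7.69, 7.505 and 7.75 CPM in the siPRMT1 libraries, against 9.40, 8.65 and 8.99 CPM in the control libraries. Its small fall (log2 -0.24, SE 0.0951; adjusted p = 0.0139) did not pass with DESeq2 (adjusted p = 0.09) or without control replicate 1 (adjusted p = 0.0699), and with the offsets FAS was higher (0.68; adjusted p = 7.98e-09). The FAS gene model overlaps STAMBPL1 on its own strand and ACTA2 on the other.

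In the necroptosis group MLKL, the pore-forming executioner, rose and its activating kinase RIPK3 had few reads. MLKL averaged 39.0 ± 0.662 CPM in siPRMT1 cells and 20.4 ± 1.63 CPM in control cells (SD, n = 3 each; log2 0.93, SE 0.0524; adjusted p = 3.78e-55; 0.88 with the offsets). RIPK3 had 3, 4 and 4 counts in siPRMT1 libraries and 12, 8 and 4 in control libraries, too few to be tested. RIPK1 stood at 59.4, 66.5 and 64.6 CPM in the siPRMT1 libraries, against 72.0, 65.2 and 68.8 CPM in the control libraries. The groups overlapped, and its small fall (log2 -0.11, SE 0.0359; adjusted p = 0.00205) did not pass with DESeq2 (adjusted p = 0.0501), without siPRMT1 replicate 1 (adjusted p = 0.104) or without control replicate 1 (adjusted p = 0.0558). With the offsets RIPK1 was higher (0.22). Within a library, MLKL relative to RIPK1 per kilobase was 1.09, 0.982 and 0.978 in the siPRMT1 libraries, against 0.508, 0.479 and 0.487 in the control libraries.

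**Figure D3:**
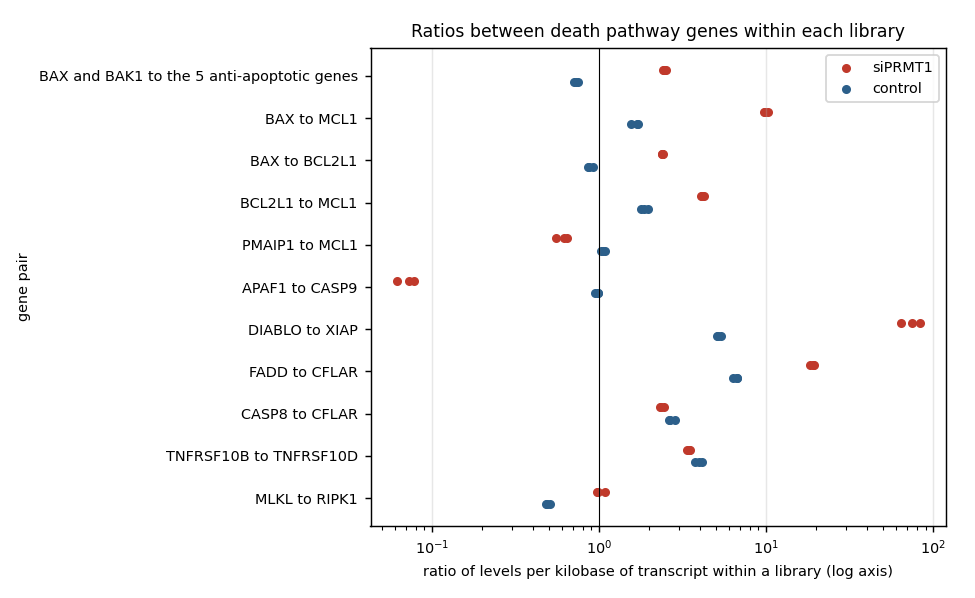
Ratios of levels per kilobase of canonical transcript between pairs of genes within each library, on a log axis, with 3 libraries per group as points and a line at 1. DIABLO to XIAP lies between 64.0 and 82.9 in siPRMT1 libraries and between 5.07 and 5.39 in control libraries, while CASP8 to CFLAR and TNFRSF10B to TNFRSF10D stay close between the groups. The ratios are not adjusted by the GC and length offsets.

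As among all tested genes, the fold changes of these genes went with the length and GC content of the transcript. The 18 genes that rose have canonical transcripts with a median of 1815.5 bases and a GC content of 56.7%, and the 20 that fell have 4043.5 bases and 44.2%. Among all tested genes with an annotated 3′ UTR the same medians are 2206 bases and 56.3% for those that rose, against 4633 bases and 42.8% for those that fell. All 6 of the genes with transcripts of at least 6000 bases (BCL2, APAF1, CFLAR, XIAP, BIRC3 and BIRC6) fell, with a median log2 fold change of -2.30, where the 2444 tested genes of that length had a median of -0.94. Of the 7 with transcripts under 1500 bases 6 rose and BCL2A1 did not pass, with a median of 1.05 against 0.92 for 2107 genes. All 5 with a GC content of at least 60% rose (BAX, BOK, BAD, BBC3 and TRADD), with a median of 0.87 against 0.95 for 2168 genes. With the offsets only BAX of these was still higher, BOK and BAD did not pass, and BBC3 and TRADD were lower. The value of BAX (0.13) was then close to the median of all tested genes (0.068). Over the 40 genes the log2 fold change and the transcript length had a Spearman rho of -0.77 (Pearson r = -0.73 with log2 length), and the GC content a rho of 0.71 (r = 0.68). Over all 13694 genes with both values rho was -0.56 for length and 0.65 for GC content. These correlations are across genes measured in the same 6 libraries and are a description only.

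The 3′ UTRs of the genes that fell were longer than those of the genes that rose, as they were among all tested genes (medians of 2194 and 637 bases). The 20 genes that fell have a median 3′ UTR of 2576.5 bases and all 20 hold at least 1 ATTTA, the core of AU-rich elements, as do 91.8% of all tested genes that fell. The 18 that rose have a median of 710.5 bases and 8 of them (44.4%) hold an ATTTA, near the 50.03% of all tested genes that rose. Per kilobase of 3′ UTR there are 2.59 of these pentamers in the genes that fell and 1.00 in those that rose, and 2.71 and 1.31 in all tested genes that fell and rose. Genes with many of them fell by very different amounts: CFLAR holds the most (23), with a log2 fold change of -0.71, before XIAP (20; -2.82), BCL2 (13; -1.37), BIRC3 (12; -2.17), TNFRSF10D (12; -0.36), MCL1 (10; -1.21) and FAS (10; -0.24). APAF1, which fell most, holds 7. PMAIP1 (-2.02) and BMF, which rose (0.51), hold 5 each, and BAX, BAK1 and BAD hold 0. PMAIP1 and BIRC2 fell with transcripts of 1899 and 3764 bases and GC contents of 36.7% and 37.4%. CASP1 and CASP4 rose with GC contents of 41.1% and 45.5%, for which the 3477 genes under 42% and the 3140 between 42% and 48% had medians of -0.92 and -0.42. By length (1996 and 1296 bases) they went with their bins, whose medians were 0.47 and 0.92.

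**Figure D4:**
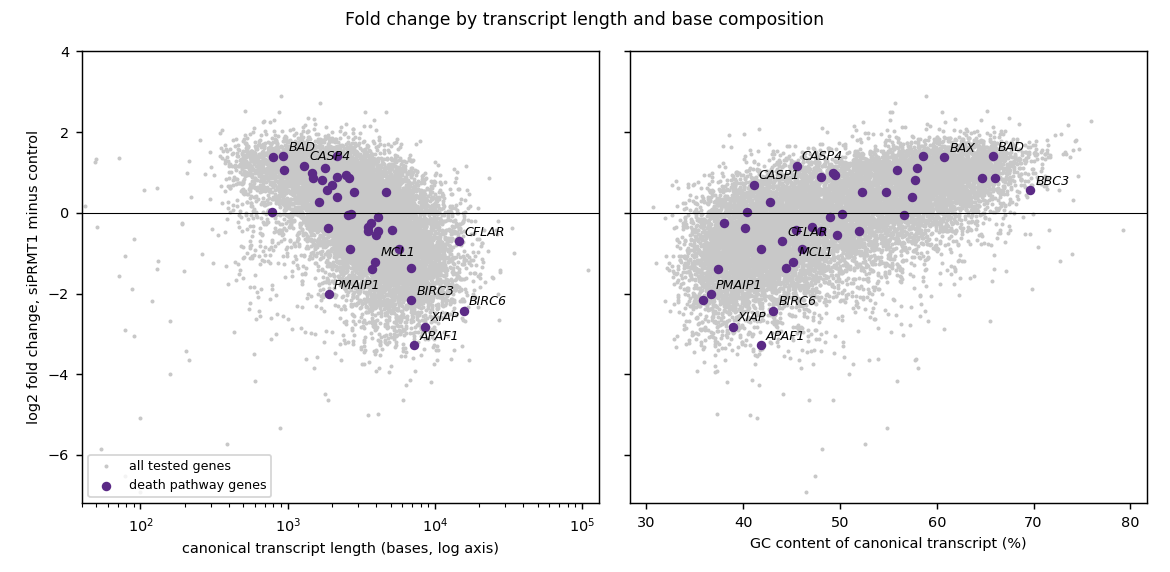
Log2 fold change (siPRMT1 minus control) against the length (left, log axis) and the GC content (right) of the canonical transcript, for all tested genes in grey and the 40 death pathway genes in purple. Long and GC-poor transcripts lie low (XIAP, APAF1, BIRC3), short and GC-rich ones high (BAX, BAD), and CASP1 and CASP4 lie above 0, where genes of their GC content had medians of -0.92 and -0.42 and genes of their length medians of 0.47 and 0.92.

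Among 69 further genes of these pathways 59 were tested, and 25 rose, 29 fell and 5 did not pass, where 44.3% and 45% of all tested genes rose and fell. Their median log2 fold change was -0.075, against -0.0082 over all tested genes. The balance turned with the processing: with the offsets 29 rose and 22 fell (median 0.10), where 44.9% and 35.6% of all tested genes did so, and with library size alone 20 rose and 35 fell (median -0.39), where 33.5% and 55.4% did so. Among the 6 lowest were CASP8AP2 (FLASH; -3.34), the kinase gene MAP3K7 (TAK1; -1.68), the deubiquitinase gene CYLD (-1.66), BCLAF1 (-1.65) and the apoptotic nuclease gene DFFB (-1.63), as log2 fold changes. With the offsets they were at -2.09, -0.61, -0.37, -0.18 and -1.70. The 6 highest were the inflammasome adaptor gene PYCARD (1.46), the pyroptotic pore gene GSDMD (1.45), SHARPIN (1.43), a subunit of the linear ubiquitin ligase, TNFRSF12A (1.42), the TWEAK receptor gene, BCL2L12 (1.30) and the mitochondrial nuclease gene ENDOG (1.28). With the offsets these came to 0.11, 0.30, 0.13, 0.099, 0.048 and -0.12. The other subunits of the linear ubiquitin ligase, RBCK1 (1.12; 0.66 with the offsets) and RNF31 (1.09; 0.56), rose as well; they and CYCS were singled out after their values were seen. CYCS, the gene of cytochrome c, was lower (-0.63) but higher with the offsets (0.35).

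On the opposite strand, GPR137 overlaps BAD, ANKS1B overlaps APAF1, MCUB overlaps CASP6, RHOBTB2 overlaps TNFRSF10B, IRF3 overlaps BCL2L12, MAF1 overlaps SHARPIN, KYAT1 and SPOUT1 overlap ENDOG, TBC1D20 overlaps RBCK1 and PSME2 overlaps RNF31. If the counting ignored strand, reads from exon bases that a pair shares cannot be told apart. Overlaps here are between whole gene models, introns included, and whether exon bases are shared was not checked. The DFFB model also overlaps a gene on the opposite strand. The RNF31 model shares its strand with another overlapping model. The counts are per gene and do not separate splice forms, and BCL2L1, MCL1, CASP9 and CASP2 each give rise to forms of opposite effect on death. In RNA from a whole culture, a lower level in every cell and fewer cells with a high level cannot be told apart. The labels name biological replicates but no separate cultures or transfections, so the tests rest on the spread among these 6 libraries, which may be technical.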

How the data were processed

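RNA of MDA-MB-231 M3 cells was sequenced from 3 siPRMT1 and 3 control libraries, with a stranded mRNA kit and paired-end reads, per the labels' protocols. The deposited values are raw read counts per gene. Among the tools in the submitters' processing notes are STAR 2.7.6a, featureCounts with Subread 1.5.1, fastp 0.23.2 and edgeR 3.40.2; the build is hg38. The strand setting, the annotation release and the treatment of duplicates are not stated. Of 20532 genes, 3209 had no counts in any library.

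Counts were fitted with edgeR 4.0.16 (TMM scaling, filterByExpr, quasi-likelihood test, group as the only term), with Benjamini-Hochberg adjustment over 13710 genes at 0.05. GC and length offsets were fitted to each library's log CPM, taken as its deviation from the gene's mean over all 6 libraries. Splines (5 df) on the GC content and log2 length of the GENCODE 44 canonical transcript were used. CPM per kilobase uses that transcript's length. The main fit and the fit with the offsets were also run on simulated counts. These had a larger spread than the data and no GC or length trend between the groups. They therefore cannot show how the offsets handle such a trend. Alternatives were DESeq2 1.42.0, limma 3.58.1 voom, other scalings and filters, a 2-fold threshold test, a replicate block and each library left out. In every pair, libraries of a group differed slightly more than sampling noise alone (chi-square over degrees of freedom 1.05 to 1.38). The common dispersion, edgeR's measure of spread beyond sampling noise, was only 9.77e-05, and the small adjusted p values rest on it. With TMM factors near 0.9 and 1.12, scaling matters to small changes.

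Named genes were PRMT1 and all 42 genes, with values in every library for those that passed with at least a 2-fold change or a mean of 50 CPM, or that changed sign with another scaling or the offsets, and the 6 highest and 6 lowest further pathway genes with a mean of at least 1 CPM. The genes and lists were chosen with earlier results of these data known. Some genes that this rule names are not reported here.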

Additional observations from a re-analysis of the deposited data

How the results depend on the processing

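RLE scaling, limma-voom, no filter and a filter of at least 1 CPM in 3 samples kept the direction and the side of the threshold of all 40 genes. BCL2A1, which never passed, had a log2 fold change of -0.021 with upper-quartile scaling, -0.29 with library size alone, -0.19 without siPRMT1 replicate 3 and -0.14 without control replicate 3, with a range of -0.19 to 0.20 over the 6 libraries left out. CASP6 was at -0.037 with library size alone, which also moved the median of the 40 genes to -0.36. With the GC and length offsets, and with the replicate block added to them, BBC3 was at -0.61 and -0.62, BCL2L11 at 0.27 and 0.27, CFLAR at 0.44 and 0.44, FADD at -0.073 and -0.074, TRADD at -0.38 and -0.38, FAS at 0.68 and 0.69, TNFRSF1A at -0.30 and -0.30, and RIPK1 at 0.22 and 0.22; the cause was not tested. A test against a 2-fold change (glmTreat) passed 1677 genes higher and 2434 lower, 4111 in all (30%), and 5 higher and 8 lower of the 40, 13 in all, because its null hypothesis is wider. DESeq2 lost BCL2L1, FAS and RIPK1. Leaving out 1 library at a time gave 18 higher and between 18 and 20 lower of the 40. Replicate numbers did not pair the libraries: the correlations of same-numbered deviations were -0.010, 0.037 and 0.0015. The fit with the replicate block called 6063 genes higher and 6156 lower, and 18 and 20 of the 40, and changed no call among them. At this depth HRK and RIPK3 could not be compared.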
